A study of Mus musculus with 3 samples.

Results

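Gene levels in the popliteal lymphnodes of B6F mice, which are wildtype C57Bl/6 females, were set beside those of SryHi males, which overexpress Sry. The levels of these groups stand in separate deposited tables, and 10325 of 48568 gene symbols entered the comparison. A symbol entered when it lay on an autosome and its mean over the B6F and SryHi libraries was at least 5 FPKM (read pairs per kilobase of a transcript, scaled to library depth). Of the 44092 autosomal symbols, 22391 are listed at 0 in both libraries and 11376 lay above 0 but under this minimum. Btbd3 (3.05 FPKM in B6F and 6.95 FPKM in SryHi) stood just inside it, and BC147527 (6.44 and 3.56 FPKM) just outside.

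Both groups were C57Bl/6 mice, 5 months old and untreated. The B6F mice carry XX chromosomes and ovaries, and RNA from 6 of them was pooled into 1 library. The SryHi mice are XY-Sry+ males of the FCG line, in which gonadal sex is separated from the sex chromosomes, pooled from 3 animals into 1 library. Their Y chromosome has lost Sry, which several transgene copies on chromosome 3 supply in its place. Sex chromosomes, gonads, the transgene and the number of mice in the pool all differ between B6F and SryHi, and their parts in any difference cannot be told apart. With 1 library on each side there are no replicates, so the differences below have no replicate check and no p-value, and "higher" and "lower" describe these 2 libraries. Whole nodes were used, stroma included, and in such bulk RNA a smaller number of cells of a type and less RNA per cell cannot be told apart.

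The lymphnode filters lymph and brings lymphocytes together with antigen. Naive T and B cells leave the blood through high endothelial venules, whose endothelium displays sulphated glycoproteins, GlyCAM-1 among them, to which rolling lymphocytes bind. Fibroblastic stroma guides the cells with chemokines, lymphatic endothelium lines the sinuses, and sinus macrophages and mast cells sit along the lymph flow. SRY is the transcription factor that directs the fetal gonad to become a testis.

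The labels held on the genes outside the comparison. Sry was listed at 0 FPKM in B6F and stood at 20.8 FPKM in SryHi, the Y-linked Ddx3y, Uty, Kdm5d and Eif2s3y were at 0 in B6F and at 33.0 to 81.6 FPKM in SryHi, and Xist stood at 395 FPKM against 0.139 FPKM. The wildtype male library, which both tables hold, had the same FPKM in both for all but 2 of 48808 entries, so the tables share a scale. The depth, read from the steps of low FPKM values, was about 5.68e+06 fragments for B6F and 5.49e+06 for SryHi. At this depth a gene of 2 kb at 5 FPKM rests on about 56.8 and 54.9 fragments.

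Most genes lay close to equality. The median log2 ratio of FPKM + 1, B6F over SryHi, was -0.03, with quartiles of -0.32 and 0.27, and 47.1% of genes lay above 0. At least 2-fold higher in B6F were 476 genes (4.61% of those compared), and 335 genes (3.24%) were at least 2-fold lower. Counts at 2-fold and 4-fold, here and below, use FPKM + 1, so a gene slightly over 2-fold on FPKM alone may not be counted. Among the 8829 protein-coding genes with a transcript of 300 nt or more the counts were 171 (1.94%) and 200 (2.27%), and 4-fold was passed by 19 genes upward and 13 downward, with 45.7% of coding genes above 0. Of the other 1496 genes, among them long and short non-coding RNAs, receptor segments and pseudogenes, 305 (20.4%) were higher and 135 (9.02%) lower. Rescaled to TPM, where the joining segments Ighj1 and Ighj4 take 72.6% of the B6F total and 35.4% of the SryHi total, the median of all genes was -1.66, so ratios are read relative to that median. None of the 8829 coding genes was listed at 0 in either library. Among the other genes kept, 71 are listed at 0 in SryHi and 44 at 0 in B6F, and for these the minimum fixed the call at 2-fold.

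**Figure D1:**
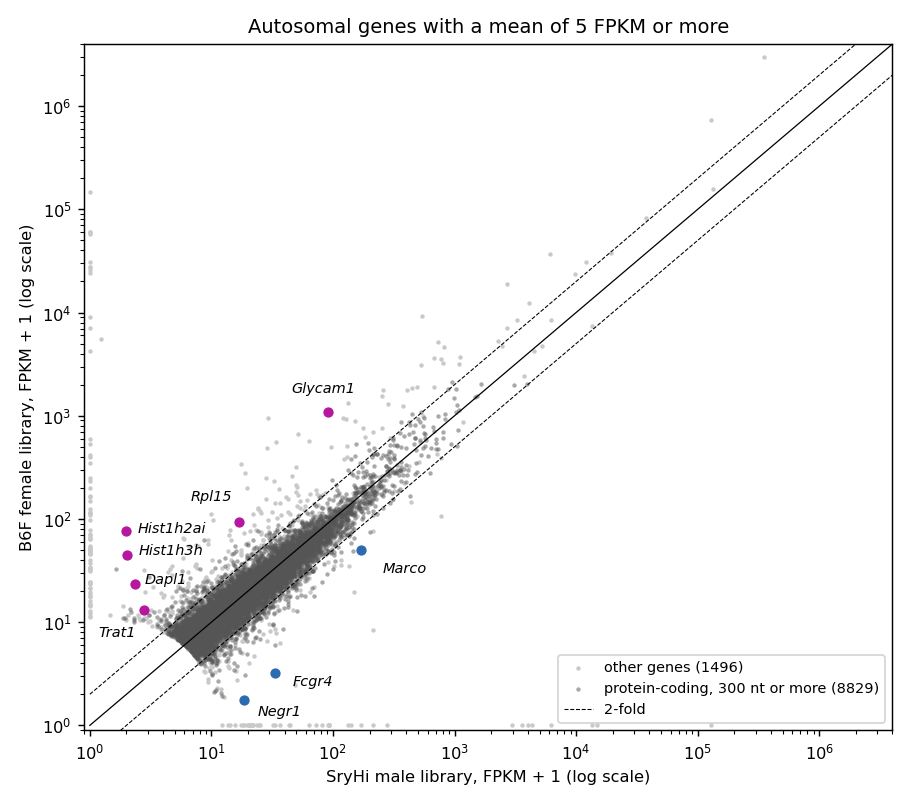
FPKM + 1 of each of the 10325 genes in the SryHi library (x axis, log scale) and in the B6F library (y axis, log scale). Protein-coding genes of 300 nt or more are dark and other genes light, the dashed lines mark 2-fold, and named genes are coloured by the library in which they were higher. Glycam1 stands at 1098 FPKM in B6F and 89.8 FPKM in SryHi, away from the bulk of the coding genes, while Marco, Fcgr4 and Negr1 lie on the SryHi side.

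Glycam1, which encodes the sialomucin GlyCAM-1 of high endothelial venules, had the highest ratio among coding genes above 100 FPKM. It stood at 1098 FPKM in B6F and 89.8 FPKM in SryHi, 12.2-fold higher in B6F (log2 ratio 3.60). The other kept genes of the venule list lay mostly below 0. The 9 autosomal genes of the list under the minimum were split, with 4 higher in B6F and 4 lower. Of the list's 13 kept members 3 were above 0, and the median log2 ratio was -0.40. Glycam1 was the only one at least 2-fold higher, and Lifr (28.0 against 58.3 FPKM) was the only one at least 2-fold lower. Enpp2, the enzyme autotaxin that makes lysophosphatidic acid, was at 142 FPKM in B6F and 208 FPKM in SryHi. Ackr1, the atypical chemokine receptor of venules, was at 10.7 and 12.3 FPKM, and Ubd, a ubiquitin-like protein, at 33.1 and 16.8 FPKM. Enzymes that decorate the venule glycoproteins were found on both sides of the minimum. Chst4 (4.005 FPKM in B6F and 2.30 FPKM in SryHi), Chst2 (3.36 and 2.94 FPKM) and B3gnt3 (2.13 and 1.87 FPKM) lay under it and were higher in B6F. Fut7 (3.35 and 4.02 FPKM) and Fut4 (2.74 and 3.85 FPKM) also lay under it and were lower. Gcnt1 (32.1 and 43.7 FPKM) and St3gal6 (35.4 and 59.6 FPKM) were kept and were lower in B6F. The chemokine genes Ccl21a and Ccl21b are listed at 0 in both libraries. Gm10591, a copy of the Ccl21 genes by its RefSeq synonyms, stood at 31.4 FPKM in B6F and 0.646 FPKM in SryHi, and its level is uncertain because reads of near-identical copies can be shared out differently. The 300 bases around the start of Glycam1 are shown because no other coding gene above 100 FPKM in B6F had so high a ratio. They come from RefSeq (GRCm38.p6, chr15:103565032-103565331, minus strand) and run from 250 bases before the start to 50 after it. Capitals mark the letters CCAAT, searched on both strands, which are held by 41.1% of 27025 gene promoters of this length and are a description only.
Glycam1: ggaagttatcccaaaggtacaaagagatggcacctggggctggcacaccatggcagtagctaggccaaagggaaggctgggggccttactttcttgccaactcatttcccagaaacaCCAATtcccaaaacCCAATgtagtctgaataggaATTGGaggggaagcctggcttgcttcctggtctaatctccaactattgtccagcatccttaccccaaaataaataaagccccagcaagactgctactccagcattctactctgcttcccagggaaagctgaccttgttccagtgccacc

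T cell genes were higher in B6F nearly throughout. Of 23 kept T cell genes 22 had a ratio above 0, 7 were at least 2-fold higher, none was 2-fold lower, and the median log2 ratio was 0.92, beside -0.03 for all genes. Their summed level was 1019 FPKM in B6F and 560.4 FPKM in SryHi. Trat1, an adaptor of the T cell receptor, stood at 12.01 FPKM in B6F and 1.81 FPKM in SryHi (log2 ratio 2.21). Themis, needed in thymocyte selection, was at 45.2 and 13.7 FPKM (1.65), and Cd3d, a chain of the receptor complex, at 32.5 and 9.71 FPKM (1.65). The other CD3 chains were less far apart, with Cd3g at 60.4 and 29.6 FPKM and Cd3e at 53.8 and 36.9 FPKM. The coreceptors differed in direction. Cd8a was at 53.4 FPKM in B6F and 27.8 FPKM in SryHi (0.92) and Cd8b1 at 63.9 and 31.7 FPKM (0.99), whereas Cd4 was at 40.5 and 44.9 FPKM (-0.15), the only member of the list below 0. Of 16 kept variable segments of the receptor 11 (68.8%) were at least 2-fold higher and 2 at least 2-fold lower. Among all genes that are not coding or are short the shares were 20.4% and 9.02%. Trbv3, a segment of the beta chain, was at 29.4 FPKM in B6F and 3.36 FPKM in SryHi. The 2 lower segments, Trdv4 (3.73 and 21.4 FPKM) and Trgv2 (6.21 and 13.6 FPKM), belong to the delta and gamma chains.

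Among 14 genes of naive and central memory T cells the spread was wide, with 9 above 0 and a median of 0.18. Dapl1 had the largest ratio, at 22.3 FPKM in B6F and 1.34 FPKM in SryHi (16.7-fold). Lef1, a DNA-binding partner of beta-catenin, was at 73.3 and 28.9 FPKM, and Ccr7, the receptor for the T zone chemokines, at 44.5 and 22.4 FPKM. Il7r, the receptor for interleukin 7, was nearly level at 66.8 FPKM in B6F and 68.0 FPKM in SryHi, and so was Cd44 (51.6 and 56.5 FPKM). The T regulatory cell list had 5 of 9 genes above 0, with a median of 0.36. Of its 4 autosomal genes under the minimum 3 were lower in B6F and 1 higher. Il2ra, the CD25 chain, was at 12.4 and 13.2 FPKM, and Foxp3, which lies on the X chromosome and stands outside the counts, at 3.68 and 4.26 FPKM. Izumo1r, a folate receptor family gene of T cells, was at 8.57 and 3.38 FPKM. The cytotoxic and NK cell genes lay the other way, since all 9 kept members were below 0, with a median of -0.27. Klrc1 (2.46 and 10.5 FPKM) and Klrk1 (13.4 and 29.3 FPKM), both lectin-like NK receptors, were at least 2-fold lower in B6F, and Ccl5 was at 103 and 175 FPKM.

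B cell genes were close to level. None of 19 was 2-fold apart, 7 lay above 0, and the median was -0.04. Cd79a and Cd79b, the signalling chains of the B cell receptor, were at 236 and 248.9 FPKM and at 229 and 209.6 FPKM in B6F and SryHi, and Pax5, the B lineage factor, at 86.0 and 86.6 FPKM. The range ran from Ebf1 (126 and 176 FPKM, log2 ratio -0.48) to Blk (36.8 and 23.1 FPKM, 0.65). The 9 germinal centre and plasma cell genes had a median of -0.01 with none 2-fold apart, and Jchain, the joining chain of secreted antibody, was at 201 and 168 FPKM. The immunoglobulin constant regions were mixed, with 2 of 12 at least 2-fold higher in B6F, 3 lower and a median of -0.47. Ighg1, Ighg2b and Ighg3 were lower in B6F (75.02 against 214 FPKM, 152 against 307 FPKM and 21.9 against 47.9 FPKM). Ighg2c was level at 291 and 279.8 FPKM, Ighm, the IgM heavy chain, was at 876 and 1178 FPKM, and Igkc, the kappa constant region, at 2422 and 3727 FPKM. Ighe, the IgE heavy chain, was higher in B6F at 16.7 against 3.02 FPKM. Of 149 variable segments 88 lay above 0 and 61 below. At least 2-fold higher were 52 (34.9%) and at least 2-fold lower 22 (14.8%), beside 20.4% and 9.02% of the genes that are not coding or are short.

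**Figure D2:**
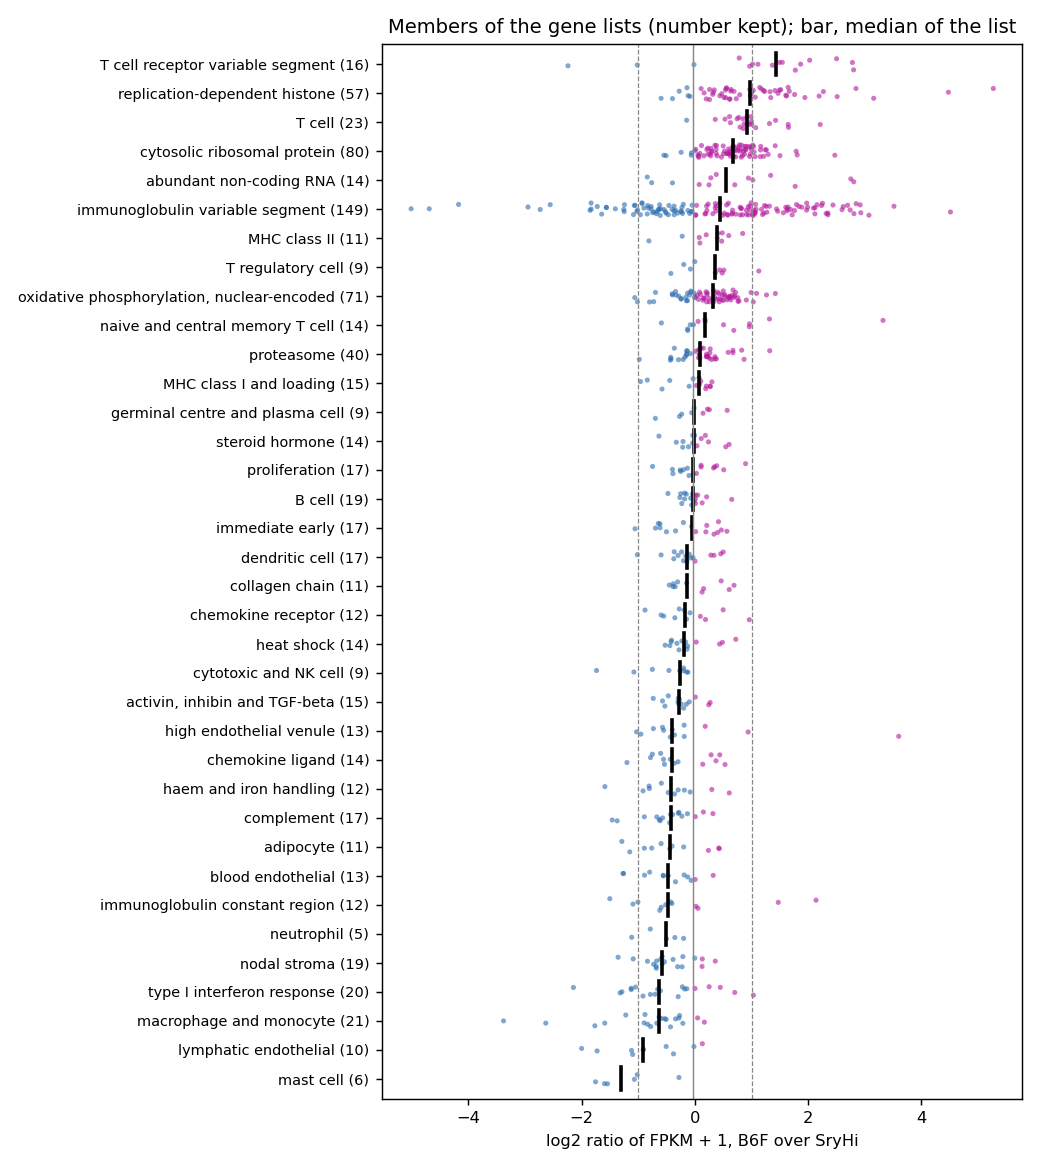
The log2 ratio of FPKM + 1, B6F over SryHi (x axis), of every kept member of each gene list with 3 or more such members, small nucleolar RNAs left out. Each point is a gene, coloured by the library in which it was higher, the black bar is the list's median, the grey line the median of all genes and the dashed lines 2-fold. T cell, histone and ribosomal protein genes lie mostly to the right with medians of 0.92, 0.97 and 0.68, and mast cell, lymphatic endothelial, macrophage and interferon genes to the left with medians of -1.31, -0.91, -0.63 and -0.63.

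Mast cell genes had a median of -1.31, the lowest of the lists in the plot of list members. All 6 kept members lay below 0 and 5 were at least 2-fold lower in B6F. Cpa3, the mast cell carboxypeptidase, stood at 23.3 FPKM in B6F and 80.9 FPKM in SryHi. The chymases Mcpt4 (31.8 and 98.3 FPKM) and Cma1 (16.4 and 49.8 FPKM) and the tryptase Tpsb2 (21.9 and 47.1 FPKM) lay in the same direction. Kit, the stem cell factor receptor, was the nearest to level at 9.11 and 11.3 FPKM.

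Macrophage and monocyte genes were lower in B6F as a list, with 19 of 21 below 0, 5 at least 2-fold lower, none 2-fold higher and a median of -0.63. Fcgr4, an activating receptor for IgG, was at 2.22 FPKM in B6F and 32.5 FPKM in SryHi, 14.6-fold lower in B6F. Cd5l, a protein secreted by tissue macrophages, was at 2.06 and 18.0 FPKM, and Marco, a scavenger receptor of sinus macrophages, at 49.3 and 170 FPKM. Timd4, a receptor for phosphatidylserine on resident macrophages, was at 47.8 and 146 FPKM, and Mrc1, the mannose receptor, at 20.3 and 48.5 FPKM. The general macrophage genes differed in how far apart they were. Cd68, a lysosomal membrane protein, was at 32.4 and 61.2 FPKM. Adgre1, which encodes F4/80, was at 8.42 and 9.92 FPKM and Csf1r, the receptor for macrophage growth factor, at 41.2 and 49.9 FPKM. Lyz2, the myeloid lysozyme, was at 586 and 522 FPKM. Of 12 kept genes in the haem and iron handling list 10 lay below 0 (median -0.42). Hpgd (13.2 and 41.7 FPKM) was the only one 2-fold apart, and it encodes an enzyme that degrades prostaglandins, not a haem or iron protein. All 5 kept neutrophil genes lay below 0 with a median of -0.50, S100a8 being at 23.4 and 41.2 FPKM. Of the 15 neutrophil genes under the minimum 9 were lower in B6F and 5 higher. Dendritic cell genes stayed near level, as 1 of 17 was 2-fold apart and the median was -0.14. That gene was Siglech, a lectin of plasmacytoid dendritic cells, at 28.5 and 58.8 FPKM.

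**Figure D3:**
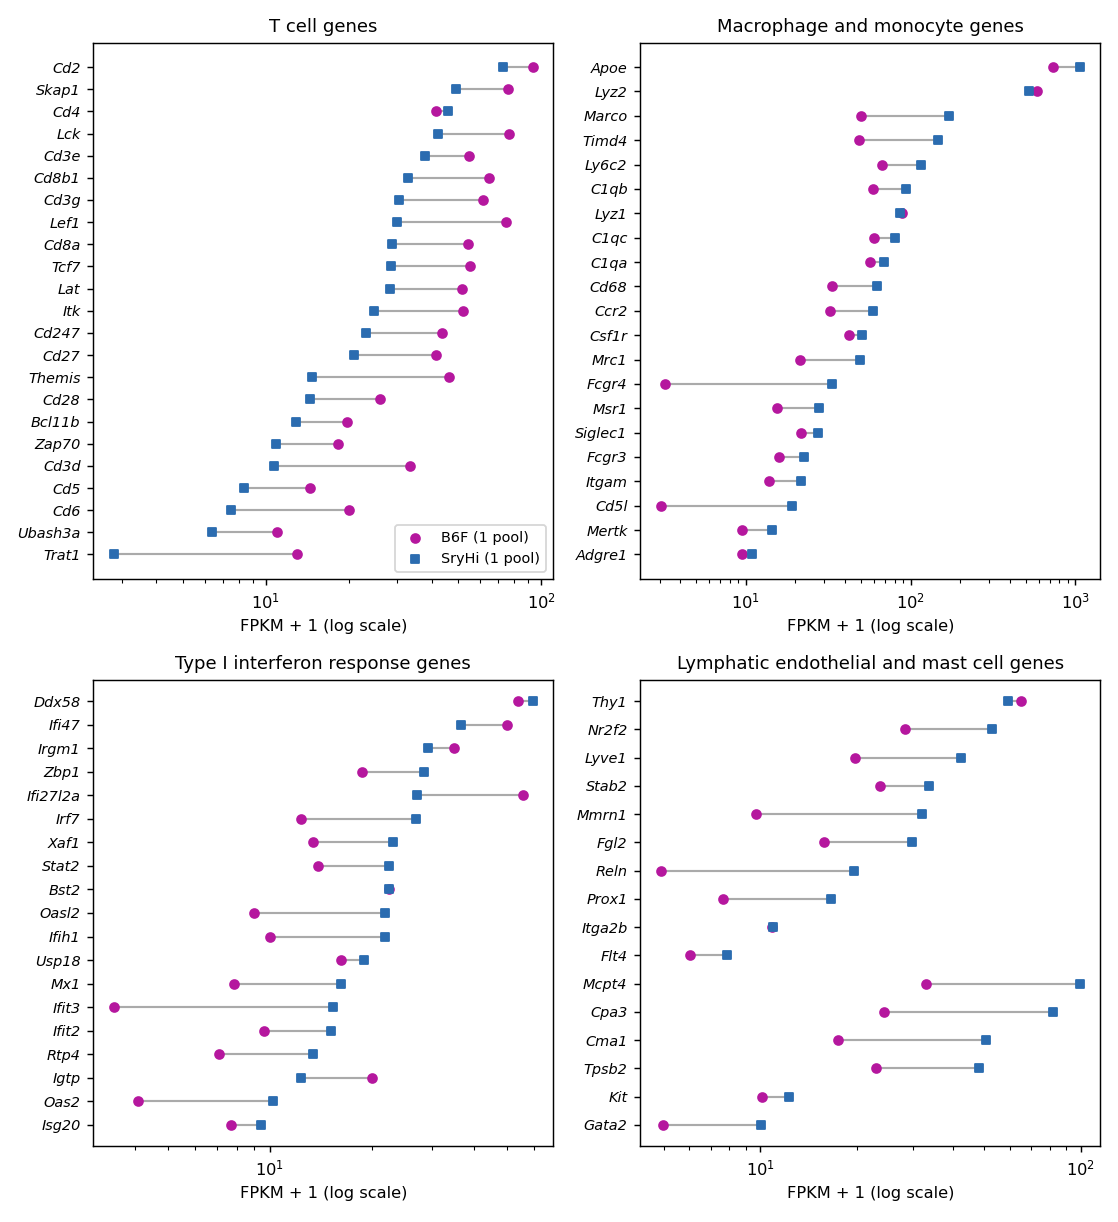
FPKM + 1 (x axis, log scale) of the kept members of 5 gene lists in the B6F library (circles) and the SryHi library (squares), ordered by the SryHi level within a list, with 1 interferon gene not shown. In the last panel the upper 10 genes are lymphatic endothelial and the lower 6 mast cell genes. Circles lie to the right of squares for 22 of 23 T cell genes, and to the left for 19 of 21 macrophage and monocyte genes and all 6 mast cell genes.

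The stromal and vessel lists lay below the median of all genes. In the lymphatic endothelial list 9 of 10 ratios were below 0 (median -0.91) and 4 genes were at least 2-fold lower in B6F. Reln, a secreted glycoprotein, stood at 3.90 FPKM in B6F and 18.6 FPKM in SryHi, Mmrn1, an extracellular multimerin, at 8.68 and 31.0 FPKM, and Lyve1, a hyaluronan receptor, at 18.8 and 41.4 FPKM. Prox1, the transcription factor that defines the lineage, was at 6.65 and 15.6 FPKM. Thy1, which T cells also express, was the only member above 0 (64.1 and 58.4 FPKM). The median over 13 blood endothelial genes was -0.47. Cdh5, the cadherin of endothelial junctions, was at 15.7 and 39.2 FPKM and Cldn5, a claudin of the same junctions, at 11.1 and 28.1 FPKM, while Pecam1, which leukocytes share, was at 110 and 120 FPKM. Of 19 nodal stroma genes 16 lay below 0, and the median was -0.58. The 5 stroma genes under the minimum went the other way, with 4 higher in B6F and none lower. Dcn, the matrix proteoglycan decorin, was at 166 and 426 FPKM and Postn, the matrix protein periostin, at 30.3 and 65.7 FPKM. Cxcl12 (265 and 403 FPKM) and Cxcl13 (155 and 225 FPKM), chemokines of the stroma, were also below 0. The 11 collagen chains stood apart from the other stromal genes, with 5 above 0 and a median of -0.15. Col1a2 was at 22.7 and 28.3 FPKM and Col6a3 at 10.5 and 6.16 FPKM.

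Genes of tissue around the node were mixed. Of 11 kept adipocyte genes 8 lay below 0 and 3 above, and the median was -0.44, with Fabp4, the lipid carrier of fat cells, at 46.8 FPKM in B6F and 116 FPKM in SryHi, Adipoq at 4.18 and 6.84 FPKM and Fasn, fatty acid synthase, at 13.7 and 9.98 FPKM. Of 18 skeletal muscle genes 2 were kept, Des, which the stroma list also holds, at 13.7 and 22.6 FPKM and Eno3 at 7.62 and 7.37 FPKM. Of the 16 muscle genes under the minimum 14 were higher in B6F, with Mylpf, a myosin light chain, at 6.73 and 2.56 FPKM, and the list summed to 57.7 and 42.05 FPKM. None of 14 mammary and skin epithelium genes was kept, and their levels summed to 6.79 and 3.94 FPKM. Of the globin and erythroid genes 2 were kept, Hba-a1 at 25.8 and 5.62 FPKM and Hbb-bs at 26.3 and 31.3 FPKM. Most mast cell, macrophage, lymphatic endothelial and fat cell genes were lower in the B6F library while most T cell and low muscle genes were higher, and the part of the tissue's make-up in the levels of single genes was not tested.

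Type I interferon response genes were lower in B6F for most members. Of 20 kept, 15 lay below 0, 6 were at least 2-fold lower, 1 was higher, and the median was -0.63. The 10 members under the minimum were all lower in B6F too. Ifit3, an antiviral protein of the IFIT family, stood at 2.48 FPKM in B6F and 14.4 FPKM in SryHi. Oas2 and Oasl2, of the oligoadenylate synthetase family, were at 3.08 and 9.20 FPKM and at 7.96 and 20.9 FPKM. Irf7, the factor that amplifies interferon transcription, was at 11.4 and 26.0 FPKM, and Mx1, a dynamin-like GTPase, at 6.84 and 15.2 FPKM. Ddx58, the RNA sensor RIG-I, was nearly level at 52.8 and 58.4 FPKM. The immunity-related GTPase genes lay above 0, with Igtp at 19.1 and 11.3 FPKM, Ifi47 at 48.9 and 35.6 FPKM and Irgm1 at 33.8 and 28.3 FPKM. Ifi27l2a, at 54.6 and 26.2 FPKM, was the only member at least 2-fold higher in B6F. The Ifit3 promoter is shown as that of the list's lowest ratio, from RefSeq (GRCm38.p6, chr19:34583279-34583578, plus strand, 250 bases before to 50 after the start). Capitals mark the interferon element GAAANNGAAA, searched on both strands and met here on the opposite strand. It was found in 7 of the 13 kept members with a promoter in the table (53.8%) and in 3.99% of all 27025. Members with it lay on both sides of 0, such as Ifit3 and Igtp, and so did members without it, such as Oasl2 and Ifi47. The element is a description only.
Ifit3: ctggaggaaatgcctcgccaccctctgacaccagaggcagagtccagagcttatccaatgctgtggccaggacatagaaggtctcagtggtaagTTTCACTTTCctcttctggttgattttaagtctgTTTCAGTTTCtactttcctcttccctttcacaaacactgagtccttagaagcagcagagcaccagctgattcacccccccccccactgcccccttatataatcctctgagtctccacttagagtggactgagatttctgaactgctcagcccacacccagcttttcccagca

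The replication-dependent histone genes, whose messages lack a poly(A) tail in most cases and are made in S phase, held the largest coding ratios. Of 57 kept, 51 lay above 0, 26 (45.6%) were at least 2-fold higher in B6F, none was 2-fold lower, and the median was 0.97. Among all coding genes of 300 to under 600 nt 35.1% were at least 2-fold higher and 6.49% at least 2-fold lower. Many histone genes belong to that class, Hist1h2ai and Hist1h3h among them, so it is not a separate reference. Hist1h2ai stood at 75.4 FPKM in B6F and 0.983 FPKM in SryHi, which correspond to about 168 and 2.1 fragments. Hist1h3h was at 43.7 and 1.01 FPKM, or about 102 and 2.3 fragments. These genes and Hist1h2bl (26.2 and 2.05 FPKM) follow each other on chromosome 13 between 21715763 and 21718069. Copies of one histone are near-identical, so the level of a single copy is uncertain. Summed over all 70 genes the level was 2493 FPKM in B6F and 1329 FPKM in SryHi, a log2 ratio of 0.91. By class the H3 genes summed to 362 and 115 FPKM, the H4 genes to 846 and 449 FPKM, and the H1 genes to 332 and 243 FPKM. Chromosome 13, which carries the large histone cluster, held 22 coding genes at least 2-fold higher in B6F out of 361, and 7 that passed 4-fold. The 22 are 6.09%, beside 1.94% of all coding genes. Other proliferation genes were level, with none of 17 2-fold apart and a median of -0.03. Mki67 was at 8.93 FPKM in B6F and 15.7 FPKM in SryHi, and Pcna, the polymerase clamp, at 54.9 and 60.3 FPKM. Tyms, thymidylate synthase, was at 7.89 and 3.79 FPKM, a log2 ratio of 0.89 on FPKM + 1. The promoters of the neighbours Hist1h2ai and Hist1h3h are shown because their ratios are the largest of any coding gene. They are H2ac13 and H3c10 in RefSeq (GRCm38.p6), at chr13:21716162-21716461 and chr13:21717378-21717677, both on the plus strand. Capitals mark the letters CCAAT on either strand. They also mark the TATA letters, TATAAA, on either strand. CCAAT letters were present in 41 of 49 kept histone genes with a promoter in the table (83.7%, against 41.1% of all) and the TATA letters in 29 (59.2%, against 15.7%).
Hist1h2ai: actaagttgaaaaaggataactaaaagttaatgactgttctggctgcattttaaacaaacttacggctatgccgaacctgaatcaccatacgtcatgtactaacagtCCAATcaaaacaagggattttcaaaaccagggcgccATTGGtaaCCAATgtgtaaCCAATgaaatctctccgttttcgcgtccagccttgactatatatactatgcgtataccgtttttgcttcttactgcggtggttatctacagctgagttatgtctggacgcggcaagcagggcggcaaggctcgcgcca
Hist1h3h: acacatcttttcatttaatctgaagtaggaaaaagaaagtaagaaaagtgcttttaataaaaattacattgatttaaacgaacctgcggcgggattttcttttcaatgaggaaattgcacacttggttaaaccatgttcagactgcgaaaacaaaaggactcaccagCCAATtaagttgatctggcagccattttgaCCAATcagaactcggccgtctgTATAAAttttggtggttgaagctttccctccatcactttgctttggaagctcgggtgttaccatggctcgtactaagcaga

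Ribosomal protein genes were higher in B6F for 74 of 80, with 16 at least 2-fold higher, none lower and a median of 0.68. Their summed level was 47175 FPKM in B6F and 31652 FPKM in SryHi. Rpl15 stood at 91.8 and 15.8 FPKM, Rps14 at 533 and 154 FPKM and Rps27 at 2125 and 951 FPKM, whereas Rpl23 (478 and 699 FPKM) and Rps26 (1550.1 and 1536 FPKM) were lower and level. Their many processed pseudogenes make single levels uncertain, as with Rps27a-ps2 (112 and 8.95 FPKM) and Rps6-ps3 (1.46 and 47.4 FPKM). Of 71 nuclear genes of oxidative phosphorylation 50 lay above 0, 4 were 2-fold higher, 2 lower, and the median was 0.32. Ndufb6, a subunit of complex I, was at 15.5 and 5.16 FPKM and Ndufs5, another, at 23.8 and 50.7 FPKM. Of 40 proteasome genes 27 lay above 0 with a median of 0.10, and Psmb5 (18.2 and 6.68 FPKM) was the only one 2-fold apart. Of 42 small nucleolar RNAs 34 were at least 2-fold higher and 3 at least 2-fold lower. The 3 lower ones, Snora3, Snord21 and Snord49b, are all listed at 0 in B6F. Snord104, Snord65, Snord100 and others of the higher ones are listed at 0 in SryHi. A gene at 0 in one library was kept only through its level in the other, so its call at 2-fold was fixed by the minimum. The shares among all genes that are not coding or are short were 20.4% and 9.02%. Of 14 abundant non-coding RNAs 11 lay above 0 and 5 were 2-fold higher. Rmrp and Terc, the RNAs of RNase MRP and telomerase, were higher in B6F (30603 against 12116 FPKM and 61.8 against 8.32 FPKM), and the long nuclear RNAs Malat1 (7483 against 13407 FPKM) and Neat1 (186 against 317 FPKM) were lower.

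The ratio moved with transcript length over the coding genes. The 77 coding genes with a longest transcript of 300 to under 600 nt had a median log2 ratio of 0.61, the 1315 of 1000 to under 2000 nt a median of 0.06, and the 562 of 8000 nt or more a median of -0.12. The histone list has a median longest transcript of 530 nt, the ribosomal protein list one of 1100 nt and the oxidative phosphorylation list one of 1231 nt. Many histone genes thus fall in the shortest class, and the median of that class includes them. T cell genes (2957 nt) and macrophage genes (2036 nt) are longer, and their medians of 0.92 and -0.63 stand beside -0.03 for the class of 2000 to under 4000 nt. The T cell receptor variable segments, which are not among the coding genes, have a median longest transcript of 380.5 nt, and the small nucleolar RNAs one of 132 nt. The part of length in the results for the histone, ribosomal protein, oxidative phosphorylation, variable segment and small nucleolar RNA lists was not tested.

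**Figure D4:**
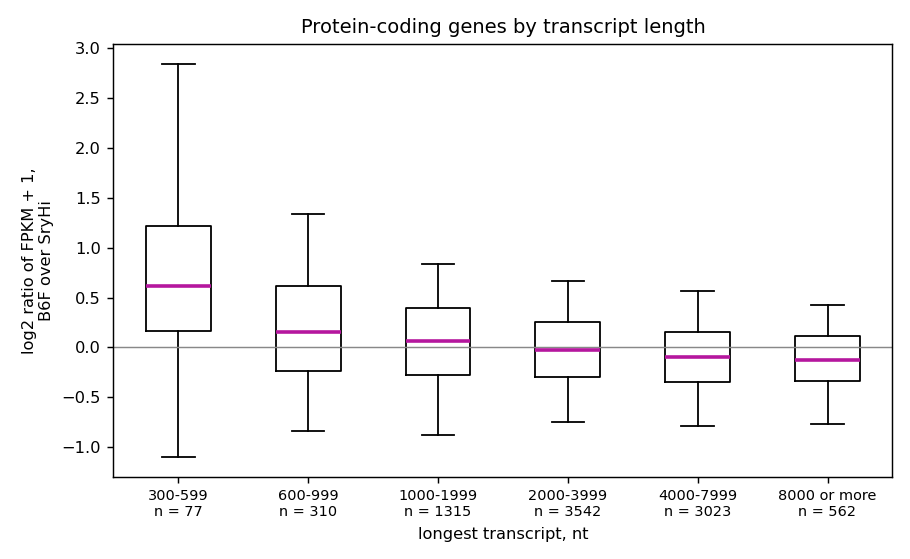
The log2 ratio of FPKM + 1, B6F over SryHi (y axis), of the 8829 coding genes in classes of their longest GENCODE transcript (x axis, nt). Boxes span the quartiles, the coloured line is the median and whiskers reach from the 5th to the 95th percentile of the genes of a class. Medians run from 0.61 in the shortest class of 77 genes, which holds many histone genes, to -0.12 in the longest of 562 genes.

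No antigen presentation gene was 2-fold apart. Of 11 MHC class II genes 9 lay above 0 and the median was 0.40. H2-Oa, part of the class II loading modulator, had the highest ratio, at 74.9 FPKM in B6F and 41.3 FPKM in SryHi. H2-Aa, an alpha chain, was at 1487 FPKM in B6F and 983 FPKM in SryHi and H2-Ab1, its beta chain partner, at 527 and 925 FPKM, in opposite directions. Of 15 MHC class I and loading genes 9 lay above 0 with a median of 0.07. Pdia3, a chaperone of the loading complex, was at 69.5 and 125 FPKM. B2m, the light chain of class I, was at 2033 and 3959 FPKM and H2-K1, a heavy chain, at 481 and 400 FPKM.

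Signalling lists held few genes at 2-fold. Of 14 chemokine ligand genes 1 was lower (Ccl12, at 11.8 and 28.4 FPKM) and the median was -0.40, and of 12 chemokine receptor genes none was 2-fold apart (median -0.17). Complement genes lay below 0 for 14 of 17, with a median of -0.43. C6, a component of the membrane attack complex, was at 3.27 and 10.1 FPKM. Of 17 immediate early genes 1 was 2-fold lower (median -0.06), and none of 14 heat shock genes was 2-fold apart (median -0.20). The activin, inhibin and TGF-beta list had 15 kept genes, none 2-fold apart, and a median of -0.27. Of its 12 genes under the minimum 9 were higher in B6F and 3 lower. Smad4, the common mediator of this pathway, was at 32.8 and 47.8 FPKM and Tgfb1 at 64.7 and 64.3 FPKM. Of 14 steroid hormone genes none was 2-fold apart and the median was -0.02. Esr1, the oestrogen receptor alpha gene, was at 6.42 and 7.61 FPKM, Nr3c1, the glucocorticoid receptor gene, at 57.03 and 55.7 FPKM, and Fkbp5, which steroid receptors induce, at 13.7 and 21.9 FPKM.

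Beyond the lists, the 15 highest coding ratios ran from 2.21 (Trat1) to 5.27 (Hist1h2ai). Of them 6 were histone genes, and Rnaset2a (12.4 and 1.14 FPKM) has near-identical copies that make its level uncertain. Saa3, an acute phase protein, was at 10.05 FPKM in B6F and 0.936 FPKM in SryHi, and Auts2, a chromatin regulator gene, at 30.0 and 4.76 FPKM. The 15 lowest ran from -3.41 to -1.95. Negr1, a neuronal adhesion molecule, had the lowest ratio, at 0.743 FPKM in B6F and 17.5 FPKM in SryHi. Lbp, which binds bacterial lipopolysaccharide, was at 2.73 and 15.3 FPKM, Nnat, an imprinted gene, at 1.12 and 9.44 FPKM, and Fmo1, a flavin monooxygenase, at 17.0 and 68.3 FPKM. Tcf7l2, a transcription factor of Wnt signalling, was at 7.63 and 37.8 FPKM and Cd163l1, a scavenger receptor family gene, at 4.95 and 32.6 FPKM. Negr1, Sirpb1c (0.943 and 11.2 FPKM) and Cd5l lie on chromosome 3, the chromosome of the transgene. They lie far apart, starting at bases 156561794, 15795145 and 87357881, and a part of the transgene's position was not tested. They were the only coding genes there that were over 4-fold lower in B6F. The chromosome as a whole held 7 coding genes 2-fold higher (1.53%) and 17 lower (3.70%) of 459 (median -0.09). Over all coding genes the shares were 1.94% and 2.27%, and chromosomes 1 and 6 held 3.33% and 4.07% lower.

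**Figure D5:**
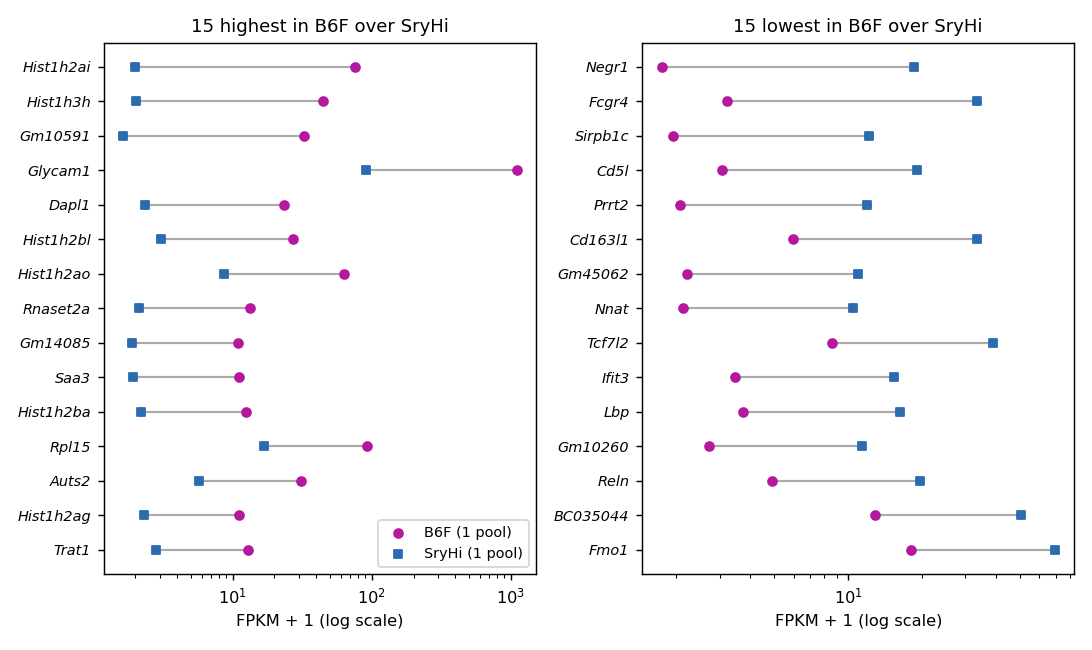
FPKM + 1 (x axis, log scale) of the 15 coding genes with the highest ratio of B6F over SryHi (left) and the 15 with the lowest (right), with circles for the B6F library and squares for the SryHi library. Glycam1 is the only gene of the highest 15 that passed 100 FPKM in B6F, and in the right panel Fmo1 has the highest SryHi level at 68.3 FPKM.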

How the data were processed

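Popliteal lymphnode RNA of B6F and SryHi mice was taken from 2 deposited tables. Per the methods and the submitters' processing notes, the authors aligned stranded, ribosome-depleted pairs of 50-base reads to mm10 with HiSat2 and estimated the deposited FPKM with Cufflinks and Cuffdiff, after Samtools (versions not given in the sources used here). The tables also hold the authors' log2 fold changes, test statistics, p-values, q-values and calls, which were not used. No column belonged to another series' sample.

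The female table's B6F values and the SryHi table's SryHi values were joined on gene ID, no entry being dropped for its status. Entries of 1 symbol were summed (231 symbols had several), and X, Y and mitochondrial genes were left out. Genes that averaged 5 FPKM or more were kept and the log2 ratio of FPKM + 1 was computed, with a pseudocount of 1 that understates the ratios of low genes. Gene types, positions and transcript lengths came from GENCODE M21 and promoters from RefSeq. With 1 pooled library per group no test was run, and list counts stand beside those of all genes. Depth was estimated from the steps of FPKM times length.

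The members and the 40 gene lists were chosen with earlier results of these data known. Named genes are the 15 highest and 15 lowest coding ratios, 2 by ratio and 2 by level of each list with at least 3 kept members, the genes that the study stained or named, and 5 higher and 5 lower non-coding genes; not all are printed, and 3 are not reported here. The others were chosen after their values were seen. The 13 alternatives changed the scale, pseudocount, minimum, gene type or entries. The ratios were tested on simulated data. Python 3.11.15, pandas 2.3.3, NumPy 2.4.6 and matplotlib 3.10.9 were used.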

Additional observations from a re-analysis of the deposited data

How the results depend on the processing

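No paired analysis was possible because each group is 1 pooled library, and for the same reason no library could be left out. Against 476 genes higher and 335 lower in B6F, a minimum of 1 FPKM gave 762 and 594, a minimum of 20 FPKM gave 249 and 133, and no minimum gave 908 and 721. Coding genes of 300 nt or more alone gave 171 and 200. A pseudocount of 5 left 176 genes lower. The other alternatives but TPM kept both counts within 1.5 times, and the scaling by the wildtype male library, the status and the exclusion of genes that differ between the tables changed none of the 188 values. On TPM the all-gene median went from -0.03 to -1.66, with 102 genes higher and 9301 lower. On that scale the log2 ratio turned for Cd3d (-0.16), Cd3g (-0.85), Ifi27l2a (-0.81), Izumo1r (-0.40), Lef1 (-0.56), Ndufb6 (-0.27), Psmb5 (-0.39), Rmrp (-0.60), Rps14 (-0.14), Rps27 (-0.77), Themis (-0.19) and Trbc1 (-0.38), all still above that scale's median. Of 13 list medians above 0, 12 turned below 0, small nucleolar RNAs excepted, among them T cell receptor segments (-0.16), histones (-0.85), T cells (-0.88), ribosomal proteins (-1.23), MHC class II (-1.49) and oxidative phosphorylation (-1.49). Relative to the median of all genes, the germinal centre and plasma cell, MHC class I and collagen lists changed side on TPM. Centring on the median moved the germinal centre and plasma cell (0.02), proliferation (0.00) and steroid hormone (0.01) medians across 0. Genes near 5 FPKM rest on few fragments when short, and the spread between animals cannot be read from pools.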

Other observations

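Most of a set of genes used by gamma delta T cells were lower in B6F, while the constant regions of the alpha beta receptor were higher. These genes were chosen after their values were seen, so their counts are a description only. Trbc1 and Trbc2, the constant regions of the beta chain, stood at 82.2 FPKM in B6F against 28.4 FPKM in SryHi and at 164 against 39.7 FPKM, and Trac, that of the alpha chain, at 92.6 against 59.2 FPKM. Trdc, the constant region of the delta chain, was at 3.27 against 8.99 FPKM and Tcrg-C1, a gamma chain constant region, at 5.53 against 27.9 FPKM. Of 16 genes used by gamma delta T cells, 12 were lower in B6F, 3 higher and 1 (Il17a) listed at 0 in both libraries. Of the 11 that reached 5 FPKM, 6 were at least 2-fold lower, none was 2-fold higher and 2 lay above 0, with a median log2 ratio of -1.02. The share at least 2-fold lower over all genes was 3.24%. Il23r, the receptor for IL-23, was at 3.44 against 8.51 FPKM and Zbtb16, the transcription factor PLZF, at 3.19 against 7.51 FPKM. Sox13 (1.81 against 5.14 FPKM) lay in the same direction under the minimum. The 3 that lay the other way were Blk, which B cells express as well (36.8 against 23.1 FPKM), Ccr6 (40.8 against 35.8 FPKM) and Tcrg-C3 (0.296 against 0 FPKM).

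Among 16 genes of sinus and other resident macrophages, also chosen after their values were seen, 15 were lower in B6F and 10 at least 2-fold lower, with a median of -1.50. Given this choice the counts are a description only, and over all genes 3.24% were at least 2-fold lower. Marco, Timd4, Cd5l, Siglec1 and Mertk were counted above in the macrophage list and Spic in the haem and iron list. Cd209b, a C-type lectin of marginal zone and medullary macrophages, was at 126 FPKM in B6F and 256 FPKM in SryHi. Dab2, an endocytic adaptor, was at 20.6 and 66.7 FPKM and F13a1, a coagulation factor subunit, at 5.45 and 21.0 FPKM. Siglec1, the sialoadhesin of subcapsular sinus macrophages, was much nearer to level at 20.6 and 26.3 FPKM. Cd209d, at 12.5 and 12.3 FPKM, was the only member not lower.

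The TCF family of Wnt factors was divided. Tcf7 (54.3 FPKM in B6F against 27.4 FPKM in SryHi) and Lef1, both used by T cells, were higher in B6F, and Tcf7l1 (3.05 against 14.5 FPKM) and Tcf7l2 (7.63 against 37.8 FPKM) were lower. The metallothionein genes Mt1 (17.4 against 53.5 FPKM) and Mt2 (12.8 against 29.2 FPKM) were both lower in B6F.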
